A study of Sus scrofa with 10 samples.

Results

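Mitochondrial fatty acid oxidation was followed through 10 genes, *ACSL1*, *CPT1A*, *SLC25A20*, *ACADVL*, *ACADL*, *ACADM*, *ACADS*, *ECHS1*, *ACAA2* and *DECR1*. A probe set was taken for a gene if the platform annotation gave it that symbol and no other, which found 11 of the 23999 porcine probe sets of the array. All 10 genes reached the minimum mean array value of 4 on the log2 scale over the 10 animals, as did 4730 genes in all. *ACADVL* had 2 probe sets, whose mean was its gene value, and each of the other genes had 1.

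The liver RNA of 10 pigs was measured on Affymetrix GeneChip Porcine arrays, with 1 array for each pig. The study asked by sequencing which liver transcripts go with the fatty acid composition of muscle. It used the arrays to compare expression values with the sequencing. All animals were females of a backcross of Iberian (Guadyerbas line) and Landrace pigs, in which crossbred boars were mated to Landrace sows, and they were raised and fed alike and slaughtered at a similar age. The 5 H animals and the 5 L animals were chosen at opposite ends of a principal component of carcass and *Longissimus dorsi* fatty acid traits, H with more polyunsaturated and L with more saturated and monounsaturated fatty acids. An animal is 1 replicate, no animal received a treatment, and some full sibs and maternal half-sibs stood in opposite groups, with no label saying which animals they are.

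Fatty acids are burned in the mitochondrial matrix. They are first bound to coenzyme A, carried across the inner membrane as carnitine esters, and then shortened in a repeated cycle of dehydrogenation, hydration, a second dehydrogenation and thiolytic cleavage that releases acetyl-CoA. In liver this pathway supplies energy and ketone bodies during fasting, and the transfer to carnitine is the step at which its rate is best known to be set.

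Array medians lay between 3.78 and 3.85, and the lowest value, 2.19, is shared by some of the probe sets without signal. Of 16 hepatocyte markers 15 were measured, with a mean array value of 14.22 to 14.50 in H animals and 14.26 to 14.42 in L animals. None of the 7 skeletal muscle and 4 adipocyte markers that had a probe set reached the minimum. In a piece of liver, fewer cells of a type and less RNA per cell cannot be told apart.

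The 10 genes differed widely in how much they varied between animals. *ACAA2* and *CPT1A* had a standard deviation (SD) of 0.65 and 0.63 over the 10 animals, larger than in 95.8% and 95.3% of the 4730 genes, while *ACSL1* varied by only 0.09, at the 4.86th percentile. The median SD was 0.26 over the 10 genes and 0.22 over all genes, and 5 of the 10 lay above the median of all genes. Values are log2 array values throughout, and a difference of 1 is a 2-fold difference. Probe sets differ in how strongly they bind, so levels are not compared between genes.

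**Figure D1:**
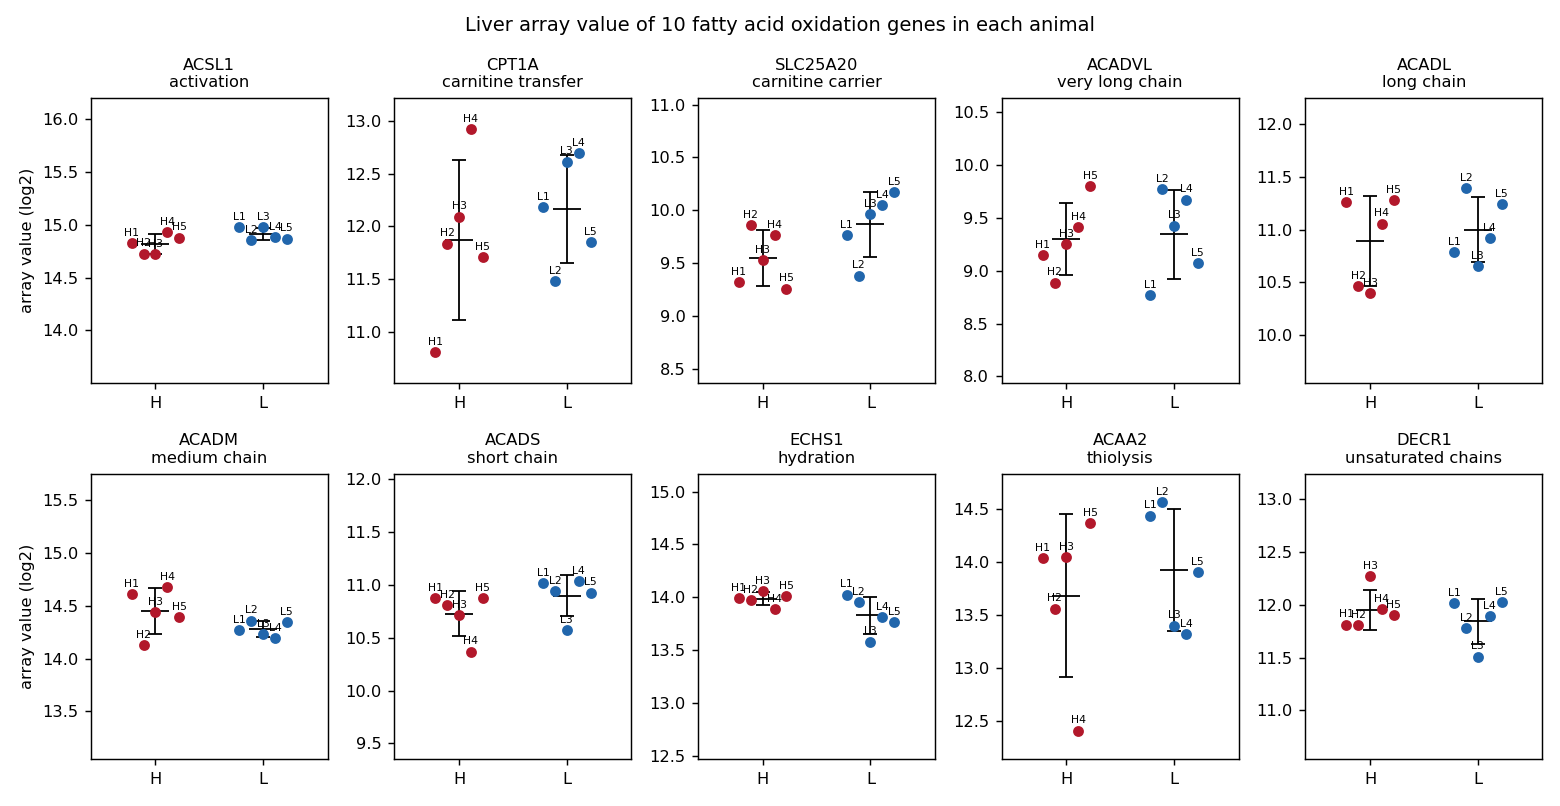
Array value (log2) of each of the 10 genes in each animal, H at the left and L at the right of each panel, with the group mean and SD in black (n = 5 each) and the same span of the vertical axis in all panels. *CPT1A* and *ACAA2* spread over 2.11 and 2.17 log2 units, *ACSL1* over 0.26, and in every panel H and L overlap.

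*ACSL1* encodes the main long-chain acyl-CoA synthetase of liver, which activates fatty acids. It read 14.83, 14.73, 14.72, 14.93 and 14.88 in H1 to H5, against 14.98, 14.86, 14.98, 14.88 and 14.87 in L1 to L5. The lowest 3 values were those of H3, H2 and H1, but H4 lay above 3 of the 5 L animals. The highest animal exceeded the lowest by 1.19-fold. Bright probe sets vary less on these arrays, and among the 57 genes with a mean of 14 or more, whose median SD was 0.13, *ACSL1* was at the 26.3rd percentile.

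*CPT1A*, carnitine palmitoyltransferase of the outer membrane, makes the carnitine ester and is the enzyme inhibited by malonyl-CoA. It read 10.81, 11.84, 12.09, 12.92 and 11.71 in H1 to H5, against 12.18, 11.48, 12.61, 12.69 and 11.85 in L1 to L5. Both the lowest and the highest animal, H1 and H4, were H animals, 4.30-fold apart, and the L animals lay between them. Without H1 the SD was 0.49. Among the 219 genes with a mean between 12 and 14, with a median SD of 0.17, *CPT1A* was at the 95.9th percentile.

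*SLC25A20*, the carrier that exchanges acylcarnitine for carnitine across the inner membrane, read 9.32, 9.86, 9.53, 9.77 and 9.26 in H1 to H5, against 9.76, 9.38, 9.97, 10.05 and 10.17 in L1 to L5. The 3 highest values were in L animals and the 2 lowest in H animals, with L2 and H2 crossing over. Its SD was 0.32. *CPT2*, which turns the ester back into acyl-CoA inside, was below the minimum with a mean of 3.77.

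The 4 acyl-CoA dehydrogenases, which start the cycle and differ in the chain length they prefer, did not share a spread. *ACADL*, for long chains, read 11.26, 10.46, 10.40, 11.06 and 11.28 in H1 to H5, against 10.79, 11.39, 10.66, 10.92 and 11.25 in L1 to L5. H2 and H3 lay lowest, below all L animals, while H1 and H5 stood near the top. The highest and lowest animals were 1.99-fold apart (SD 0.36).

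*ACADM*, for medium chains, read 14.61, 14.13, 14.44, 14.68 and 14.39 in H1 to H5, against 14.27, 14.36, 14.23, 14.19 and 14.35 in L1 to L5. Of the H animals 4 were above every L animal and H2 was below them all. *ACADS*, for short chains, read 10.88, 10.81, 10.71, 10.37 and 10.88 in H1 to H5, against 11.02, 10.94, 10.57, 11.04 and 10.93 in L1 to L5. Of the L animals 4 were above every H animal, and L3 was below all but H4.

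*ACADVL*, the membrane-bound enzyme for very long chains, was read by 2 probe sets that did not vary together over the 10 animals (r = -0.06, permutation p = 0.888 and Spearman's rho = -0.10, permutation p = 0.784). The brighter had a mean of 11.56 and an SD of 0.22, and the dimmer a mean of 7.08 and an SD of 0.70. The dimmer read 6.80, 6.11, 7.43, 7.36 and 7.99 in H1 to H5, against 5.99, 7.92, 7.29, 7.36 and 6.53 in L1 to L5. H2 and L1 were lowest, and these animals also had the largest difference between the 3' and 5' control probe sets of *GAPDH*, 2.39 and 2.70, a difference that grows as RNA degrades.

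Over the 10 animals the dimmer *ACADVL* probe set had r = -0.90 with that *GAPDH* difference (permutation p = 2e-04, adjusted over the 2 probe sets 4e-04 and rho = -0.84, permutation p = 0.00395, adjusted 0.0079, and r = -0.80 without H2 and L1). The brighter had r = 0.13 (permutation p = 0.654, adjusted 0.654 and rho = 0.03, permutation p = 0.945, adjusted 0.945). Each probe set was set against the *GAPDH* difference after the data had been seen. Among the 10 gene values only that of *ACADVL* passed for r after Benjamini-Hochberg adjustment over the 10 relations (r = -0.83, permutation p = 0.00111, adjusted 0.0111 and rho = -0.79, permutation p = 0.00884, adjusted 0.0884), and r was -0.77 without H5 and L1, its highest and lowest animals. For the other 9 genes r lay between -0.28 and 0.35. With the *GAPDH* difference as a covariate in limma, the H minus L difference of *ACADVL* was -0.07 (SE 0.14), against -0.04 (SE 0.22) without it.

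*ECHS1*, the short-chain enoyl-CoA hydratase, read 14.00, 13.97, 14.06, 13.89 and 14.01 in H1 to H5, against 14.03, 13.96, 13.58, 13.81 and 13.76 in L1 to L5. The H animals lay close together, and L3, L5 and L4 were below all of them. *ACAA2*, the mitochondrial 3-oxoacyl-CoA thiolase that closes the cycle, read 14.03, 13.56, 14.05, 12.41 and 14.37 in H1 to H5, against 14.44, 14.57, 13.40, 13.32 and 13.91 in L1 to L5. H4 stood far below the next animal, L4, and without H4 the SD was 0.46. The highest and lowest animals, L2 and H4, were 4.49-fold apart, and within the 219 genes of like mean *ACAA2* was at the 96.8th percentile. *DECR1*, the dienoyl-CoA reductase needed for polyunsaturated chains, read 11.81, 11.81, 12.27, 11.96 and 11.90 in H1 to H5, against 12.01, 11.78, 11.51, 11.89 and 12.03 in L1 to L5, with H3 highest and L3 lowest.

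**Figure D2:**
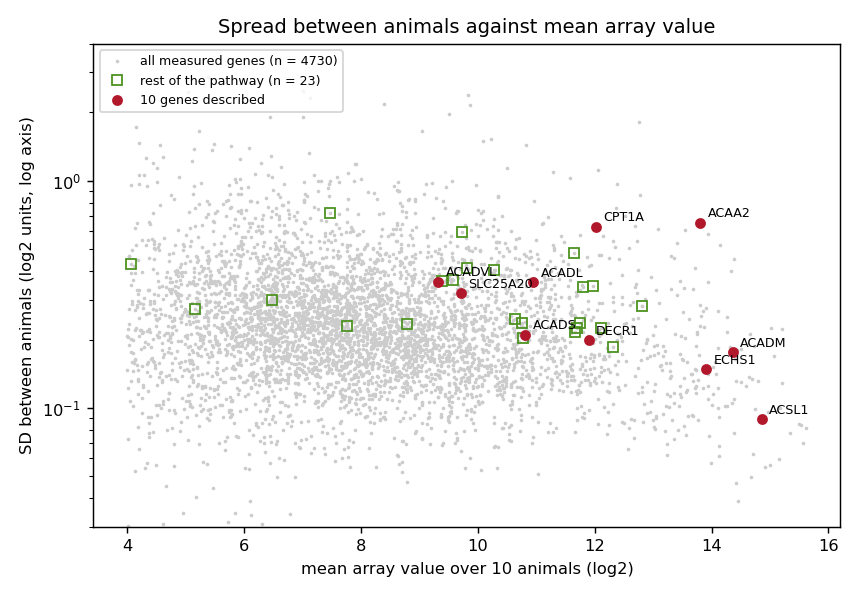
SD between the 10 animals (log axis) against mean array value (log2) for 4730 genes in grey, the 10 genes as red circles and 23 further genes of the pathway as green squares. *ACAA2* (SD 0.65) and *CPT1A* (SD 0.63) stand above most genes of like mean, and *ACSL1* (SD 0.09) is the least variable of the 10.

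No step differed between H and L beyond the spread between animals. By limma over all 4730 genes, 0 of the 10 genes had an adjusted p under 0.05, as did 0 of all genes (0%), and at an unadjusted p under 0.05 there were 0 of 10, against 2.64% of all genes. In 0 of the 10 genes were the groups apart without overlap, against 0.359% of all genes. The difference H minus L was above 0 in 3 genes and below 0 in 7, with a median of -0.10, and in all genes the median was -0.04, with 62.8% below 0.

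The carnitine steps and the thiolase had the differences farthest from 0, all below 0, and those of *CPT1A* and *ACAA2* turned on single animals. Means are given with their SD over 5 animals a group. *SLC25A20* averaged 9.55 ± 0.27 in H and 9.87 ± 0.31 in L, a difference of -0.32 (SE 0.17, limma adjusted p = 0.985, unadjusted p = 0.0898 and 95% confidence interval -0.70 to 0.06). *CPT1A* averaged 11.88 ± 0.76 in H and 12.16 ± 0.51 in L, a difference of -0.29 with an interval of -1.10 to 0.52, and the difference was -0.02 without H1 and -0.55 without H4. *ACAA2* averaged 13.68 ± 0.77 in H and 13.93 ± 0.58 in L, a difference of -0.24 with an interval of -1.10 to 0.61, and without H4 the difference was 0.08, above 0.

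Genes with a smaller SD were bounded more closely. *ACSL1* averaged 14.82 ± 0.09 in H and 14.91 ± 0.06 in L, and its interval ran between -0.25 and 0.06. *ECHS1* averaged 13.98 ± 0.06 in H and 13.83 ± 0.17 in L, a difference of 0.16 with an interval of -0.05 to 0.36. *ACADM* averaged 14.45 ± 0.22 in H and 14.28 ± 0.07 in L, a difference of 0.17 with an interval of -0.07 to 0.40. Among the 57 genes with a mean of 14 or more, the SD of *ACADM* was at the 73.7th percentile.

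The other dehydrogenases and the reductase lay nearer to 0 or had wider errors. *ACADS* averaged 10.73 ± 0.21 in H and 10.90 ± 0.19 in L (difference -0.17, SE 0.13), and *ACADL* differed by -0.11 (SE 0.22). *ACADVL* averaged 9.30 ± 0.34 in H and 9.34 ± 0.42 in L (difference -0.04, SE 0.22), its probe sets differing by -0.21 (the brighter) and 0.12 (the dimmer). *DECR1* averaged 11.95 ± 0.19 in H and 11.84 ± 0.21 in L (difference 0.11, SE 0.13). The adjusted p was 0.997 for *ACADVL* and 0.985 for each of the other 9 genes.

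**Figure D3:**
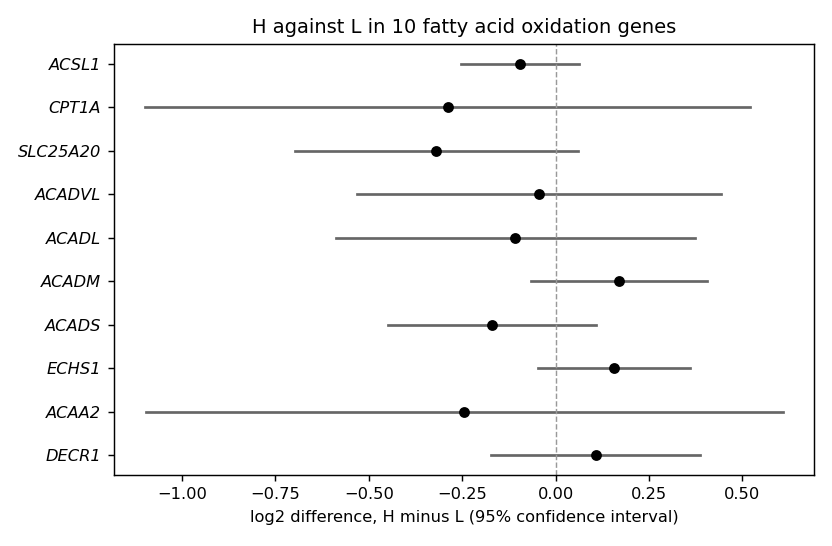
Fitted log2 difference, H minus L, of each of the 10 genes in the order of the pathway (points), with limma's 95% confidence interval (lines, n = 5 animals each). All 10 intervals include 0, and those of *CPT1A* and *ACAA2* are the widest.

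Correlations of the 10 genes with each other centred near 0. Over the 45 pairs of the 10 genes the median Pearson's r over the 10 animals was -0.02, against 0.03 over all 11169901 pairs of measured genes, and r was 0.6 or more in size in 11.1% of the 45 pairs and in 10.5% of all pairs. No pair had an adjusted permutation p under 0.05 (the smallest was 0.427 for r and 0.493 for rho), and 3 pairs had an unadjusted p under 0.05 for r.

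The most variable genes, *CPT1A* at the entry and *ACAA2* at the end of the pathway, had opposing values without passing the adjusted threshold. They had r = -0.69 (permutation p = 0.0285, adjusted 0.427) and rho = -0.66 (permutation p = 0.0442, adjusted 0.493). H4, L4 and L3 were the 3 highest animals for *CPT1A* and the 3 lowest for *ACAA2*. The relation was r = -0.72 without H1 and H4 and -0.77 with each group centred on its mean, and leaving out single animals gave r between -0.83 and -0.54. It was negative within H (r = -0.74) and within L (r = -0.83), each over 5 animals and given without a test.

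The carnitine genes *CPT1A* and *SLC25A20* had r = 0.62 (permutation p = 0.0572, adjusted 0.634 and rho = 0.61, permutation p = 0.0658, adjusted 0.493), and r = 0.59 without H1 and H4. *SLC25A20* ran against *ECHS1* with r = -0.68 (permutation p = 0.0279, adjusted 0.427 and rho = -0.72, permutation p = 0.0240, adjusted 0.493), and r = -0.65 without H1 and H5. With each group centred on its mean, *SLC25A20* and *ECHS1* had r = -0.54 (permutation p = 0.151, adjusted 0.640). The highest r of all pairs, 0.71 between *ACADS* and *ACAA2* (permutation p = 0.0224, adjusted 0.427), came with rho = 0.41 (permutation p = 0.246, adjusted 0.744) and rested on H4 and L3, without which r was 0.01.

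**Figure D4:**
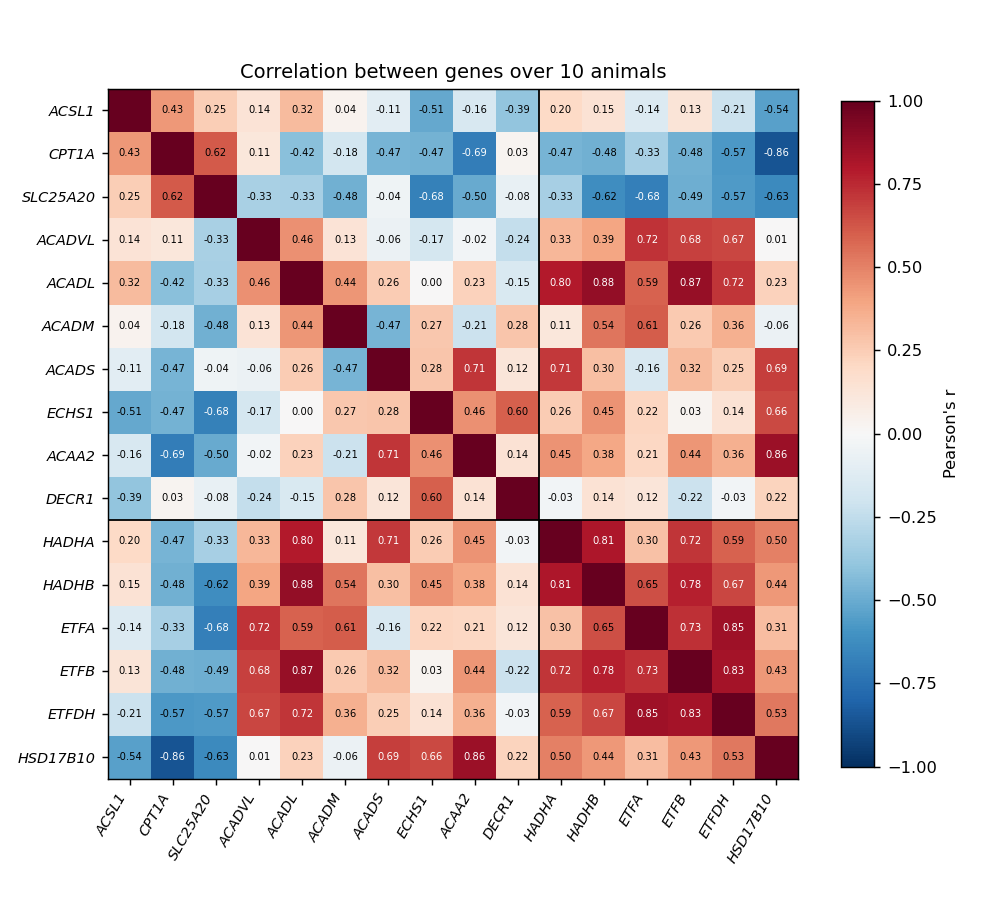
Pearson's r over the 10 animals between the 10 genes (above and left of the lines) and 6 further genes of the pathway, chosen after the values were seen: both subunits of the trifunctional protein, the electron transfer flavoprotein chain and *HSD17B10*. Among the 10 genes r runs between -0.69 and 0.71, *CPT1A* and *ACAA2* are at -0.69, and *ACADL* is at 0.88 with *HADHB* and 0.87 with *ETFB*.

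Of 37 further genes listed for the pathway, 28 had a probe set of their own symbol and 23 were measured. None had an adjusted p under 0.05 between H and L by limma. At an unadjusted p under 0.05 there was 1 of 23, against 2.64% of all genes. It was *ACAD8*, a dehydrogenase of valine breakdown. It read 8.84, 8.68, 8.96, 9.05 and 9.12 in H1 to H5, against 8.35, 8.89, 8.62, 8.59 and 8.81 in L1 to L5, a difference of 0.28 (SE 0.12, limma adjusted p = 0.985, unadjusted p = 0.0422). The groups overlapped through L2 and L5. The next were *ACSL4*, a synthetase that prefers arachidonic acid (0.36, SE 0.19), and *SLC22A5*, the carnitine transporter of the plasma membrane (-0.24, SE 0.15). The median difference over the 23 genes was 0.07, with 15 above 0 and 8 below, while 62.8% of all genes lay below 0. The most variable of them were *IVD*, of leucine breakdown (SD 0.72), and *ACOT13*, a thioesterase (SD 0.59).

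The 10 genes were also set against these neighbours. In 230 relations of the 10 with the 23 genes, a family added after the data had been seen, none passed the adjusted threshold for r (smallest adjusted p 0.0882) and 2 did for rho. *ACADL* went with *ETFB*, a subunit of the flavoprotein that takes electrons from the acyl-CoA dehydrogenases (rho = 0.93, permutation p = 0.00030, adjusted 0.0379, and r = 0.87, permutation p = 0.00067, adjusted 0.0882, and r = 0.84 without H2 and H3). *CPT1A* ran against *HSD17B10*, a mitochondrial 3-hydroxyacyl-CoA dehydrogenase (rho = -0.93, permutation p = 0.00033, adjusted 0.0379, and r = -0.86, permutation p = 0.00105, adjusted 0.0882, and r = -0.81 without H1 and H4). *HSD17B10* read 12.01, 11.81, 11.89, 11.30 and 11.93 in H1 to H5, against 11.78, 12.00, 11.43, 11.67 and 11.72 in L1 to L5, so that H4 and L3 were lowest, both among the 3 animals highest for *CPT1A*.

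*ACADL* also went with *HADHB*, the thiolase subunit of the trifunctional protein that takes long chains through the later steps (r = 0.88, permutation p = 0.00115, adjusted 0.0882 and rho = 0.89, permutation p = 0.00115, adjusted 0.0882, and r = 0.87 without H2 and H3). *HADHB* read 11.85, 11.39, 11.48, 11.75 and 11.93 in H1 to H5, against 11.69, 11.93, 11.31, 11.60 and 11.68 in L1 to L5. H2, H3 and L3 were the 3 lowest animals for both genes. *ACAA2* went with *HSD17B10* (r = 0.86, permutation p = 0.00163, adjusted 0.0937 and rho = 0.76, permutation p = 0.0155, adjusted 0.220, and r = 0.70 without H4 and L4).

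Transcripts whose proteins form a complex or pass electrons to each other were looked at too. *HADHA* and *HADHB*, which form the trifunctional protein, had r = 0.81, and r = 0.67 without H3 and L3. The 3 pairs among *ETFA*, *ETFB* and their partner dehydrogenase *ETFDH* had r = 0.73 to 0.85. Without H2 and L1, r was 0.57 for *ETFA* with *ETFB* and 0.69 for *ETFA* with *ETFDH*. *ETFB* with *ETFDH* had r = 0.84 without H5 and L2. H2 and L1 were lowest for *ETFA*, *ETFB* and *ETFDH* and had the largest *GAPDH* difference, 2.39 and 2.70. The part of RNA quality in these pairs was not tested. The permutation p of r, adjusted over these 4 pairs, was 0.0057 to 0.0153. The pairs were chosen after the data had been seen, so they are given as a description. Over all 253 pairs of the 23 genes the median r was 0.11, against 0.03 over all pairs of measured genes, and the highest was 0.88. Of the 253 pairs 32 had r of 0.6 or more, against 673344 of all 11169901 pairs. In size, r was 0.6 or more in 16.6% of the 253 pairs and in 10.5% of all pairs.

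Of 28 genes listed for control of the pathway and the response to fasting, 9 were measured. Both probe sets of *PPARA*, the nuclear receptor that drives these genes in fasted rodents, lay below the minimum, with means of 2.70 and 2.20, as did those of its partner *RXRA* (2.19), so that neither could be compared here. None of the 9 had an unadjusted p under 0.05 between H and L by limma, against 2.64% of all genes. *LPIN1*, lipin, varied most (SD 0.99) and read 7.22, 8.60, 8.79, 6.48 and 6.52 in H1 to H5, against 7.82, 7.84, 5.68, 6.75 and 6.85 in L1 to L5, a difference of 0.53 (SE 0.57, limma adjusted p = 0.985). H2 and H3 were highest, and the other H animals lay among the L animals. *TXNIP*, a thioredoxin inhibitor, differed by -0.18 (SE 0.21).

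*ANGPTL4*, a secreted inhibitor of lipoprotein lipase that responds to fasting, read 8.18, 8.21, 9.18, 9.86 and 7.63 in H1 to H5, against 8.72, 8.46, 9.03, 9.69 and 8.78 in L1 to L5 (difference -0.32, SE 0.40). H4 and L4 were highest, as they were for *CPT1A*. Regulators and fasting-responsive genes chosen for correlation and measured were *PPARGC1A*, *LPIN1*, *PDK4* and *ANGPTL4*. Among the 40 relations of the 10 genes with these 4, none passed the adjusted threshold, and *CPT1A* with *ANGPTL4* came nearest (r = 0.79, permutation p = 0.00655, adjusted 0.135 and rho = 0.88, permutation p = 0.00151, adjusted 0.0604). Without H1 and H4 r was 0.76, within H it was 0.76 and within L 0.85.

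The remaining relations with an unadjusted p under 0.05 for r fell more in size when the animals farthest from the first gene's median were left out. *ACADL* ran against *PPARGC1A*, a coactivator of oxidative genes, with r = -0.79 (permutation p = 0.0085, adjusted 0.135 and rho = -0.73, permutation p = 0.0197, adjusted 0.263), and r was -0.50 without H2 and H3. *ACSL1* ran against *LPIN1* with r = -0.75 (permutation p = 0.0135, adjusted 0.135 and rho = -0.78, permutation p = 0.0105, adjusted 0.211), and r was -0.32 without H2 and H3. *ECHS1* went with *LPIN1* with r = 0.74 (permutation p = 0.0134, adjusted 0.135 and rho = 0.62, permutation p = 0.0614, adjusted 0.498), and r was 0.58 without L3 and L5. *ACAA2* ran against *ANGPTL4* with r = -0.71 (permutation p = 0.0213, adjusted 0.170 and rho = -0.61, permutation p = 0.0673, adjusted 0.498), and r was -0.30 without H4 and L4.

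**Figure D5:**
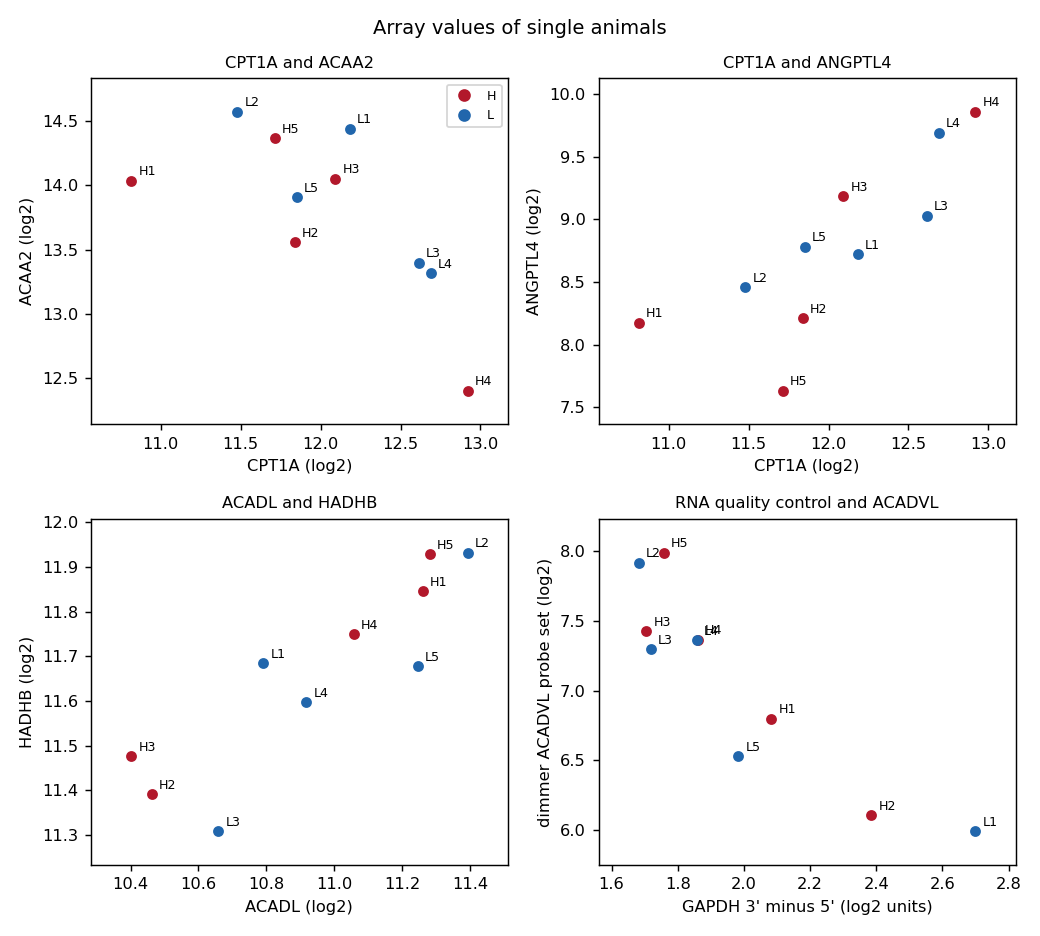
Array values (log2) of single animals, H in red and L in blue: *CPT1A* with *ACAA2* (r = -0.69), *CPT1A* with *ANGPTL4* (r = 0.79), *ACADL* with *HADHB* (r = 0.88), and the dimmer *ACADVL* probe set with the *GAPDH* 3' minus 5' difference (r = -0.90). H and L animals lie mixed along each relation, and in the last panel H4 and L4 fall on nearly the same point.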

How the data were processed

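The arrays were read with GCOS by the authors, who made the deposited log2 values with GCRMA, which adjusts the background and normalizes between arrays; the submitters' processing notes also name RMA, and versions are not given in the sources used here. GCRMA sets some probe sets without signal to a common lowest value, which understates differences between dim probe sets. Equal values in several animals also occurred higher up, as for *NUDT1* with 6.17 in H2, H3, L1 and L5. Of the genes that reached the minimum, 3 had no spread over the animals, so reaching it does not ensure signal in every animal. Arrays were matched to animals and groups by the names in the labels, and 0 columns of sample values were left unused. Of the 23999 porcine probe sets 10069 had 1 gene symbol in the platform annotation, 198 had several and 13732 had none. A gene's value was the mean of its probe sets with a mean log2 value of at least 4.

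The two-sided comparison of H with L used lmFit and eBayes of limma 3.58.1 under R 4.3.3 without a covariate. It was tested on simulated data and run with Benjamini-Hochberg adjustment over 4730 genes and a threshold of 0.05. Correlations over animals used two-sided permutation tests with 100000 resamples, and Benjamini-Hochberg adjustment within each family, in Python 3.11.15 with numpy 2.4.6, pandas 2.3.3, scipy 1.17.1 and matplotlib 3.10.9. The number of arrays limits the precision, and p-values take animals as independent, since kinship could not be modelled.

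The 10 genes and the gene lists were chosen with earlier results of these data known. Named are all 10 genes; of each list the genes past the threshold, or else the 3 with the smallest unadjusted p, and the 2 with the largest SD; and the 4 genes most correlated with each of the 2 most variable of the 10. Further genes of the lists stand as examples. The alternatives were other minimum values or none, quantile normalization, centring of arrays or groups, array weights, another prior, a threshold of 0.1, a block for the animal number, a covariate for the *GAPDH* difference, other ways to combine probe sets, Spearman's rho, and leaving out each animal in turn. Animals with the same number in H and L did not deviate together (correlations of -0.24 to 0.28), so the numbers were not taken as pairs. The sequencing data of the study are not used here.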

Additional observations from a re-analysis of the deposited data

Results flagged for a closer look

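The highest and lowest animals of each of the 10 genes were tested in each group of 5 by Dixon's criterion, at which chance marks about 1 in 20 groups, and 1 of 20 was marked. *ACADS*, the short-chain acyl-CoA dehydrogenase, read 10.57 in L3, against 10.93 to 11.04 in the other 4 L animals. In H animals it read 10.37 to 10.88.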

How the results depend on the processing

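None of the 10 genes, and none of all genes tested, had an adjusted p under the threshold between H and L under any alternative, leaving out each animal included. With the animal number as a block there were likewise 0, with a smallest adjusted p of 0.994, and the block changed no other call; 2 of 10 animals correlated best with the animal of their own number. *SLC25A20* had an unadjusted p under 0.05 with array weights (-0.38), without H2 (-0.40) and without L2 (-0.44), *ACADM* without H2 (0.25) and *ECHS1* without L1 (0.21). The difference of *CPT1A* lay between -0.55 and -0.02, and those of *ACAA2* (-0.41 to 0.08), *ACADL* (-0.21 to 0.01) and *ACADVL* (-0.21 to 0.06) crossed 0 by less than their standard error. The SD of *ACADVL* was 0.22 with its brighter probe set alone. The median r of the 45 pairs lay between -0.08 and 0.06, and no pair passed under any alternative. Alternatives added after seeing the data changed some counts of relations. With the genes of control and fasting response, leaving out single animals gave 0 to 2: *CPT1A* with *ANGPTL4* and *ECHS1* with *LPIN1* without H5, and 1, *ACSL1* with *LPIN1*, without L1. With the rest of the pathway there were 2 by Spearman's rho and 1 with the brighter probe sets (*CPT1A* against *ACADSB*), and 0 without any single animal. The cause was not tested. Differences between dim probe sets near the lowest value are understated.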

Other observations

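The genes whose pattern over the 10 animals was most like that of *ACAA2* and *CPT1A* were in none of the lists for the pathway. Of 4726 other genes with any spread, those most like *ACAA2* were *FAM149A* (r = 0.94), *OXSM*, of mitochondrial fatty acid synthesis (r = 0.92), *SMIM19* (r = 0.91) and *METTL5*, a methyltransferase of ribosomal RNA (r = 0.90). Most opposite to *ACAA2*, a list made after the values were seen, were *DRG1* (r = -0.95), the nucleolar helicase *DDX21* (r = -0.93), the ribosome assembly factor *LTV1* (r = -0.91) and the chaperonin subunit *CCT6A* (r = -0.90). *DDX21* read 9.07, 9.31, 9.11, 9.96 and 9.06 in H1 to H5, against 9.11, 8.91, 9.62, 9.51 and 8.95 in L1 to L5, highest in H4, L3 and L4, the 3 animals lowest for *ACAA2*. Those most like *CPT1A* were *ANXA11*, an annexin (r = 0.95), *NOL6*, a nucleolar protein (r = 0.94), *NUDT1*, which clears oxidised nucleotides (r = 0.93), and *EXOSC5*, of the RNA exosome (r = 0.93). *NUDT1* read 6.17 in each of H2, H3, L1 and L5, and *EXOSC5* read 5.43 in both H2 and L2. *NOL6* was dim, with 3.77 in H1 and 5.28 in H4 as its extremes. The r values of these genes thus rest in part on equal or dim values. Most opposite to *CPT1A*, again listed after the values were seen, were *DNAJC19*, of mitochondrial protein import (r = -0.96), *BCKDHB*, of branched-chain amino acid breakdown (r = -0.95), *ABTB2* (r = -0.94) and *IZUMO4* (r = -0.93). *BCKDHB* read 11.71, 11.30, 11.15, 10.86 and 11.29 in H1 to H5, against 11.25, 11.59, 10.79, 10.85 and 11.15 in L1 to L5, lowest in H4, L3 and L4, the 3 animals highest for *CPT1A*. These are the extremes of many correlations and are given as a description, with no test.

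All but 1 of the 17 genes listed for the tricarboxylic acid cycle, which takes up the acetyl-CoA of the pathway, were measured. Between H and L none had an unadjusted p under 0.05 by limma, against 2.64% of all genes. The differences with the smallest p were those of *DLD* (0.21, SE 0.12), *SUCLG2* (0.19, SE 0.17) and *SUCLG1* (-0.13, SE 0.15), and the most variable genes were *FH* (SD 0.31) and *SDHC* (SD 0.31). Mean array values of whole lists were set against *CPT1A* and *ACAA2* over the 10 animals, as a description with no test. The mean of the cycle had r = -0.60 with *CPT1A* and 0.21 with *ACAA2*, and that of the 23 further genes of the pathway -0.59 with *CPT1A* and 0.26 with *ACAA2*. Of the marker lists, the 15 hepatocyte markers had r = -0.17 with *CPT1A* and 0.09 with *ACAA2*. The 4 endothelial markers had r = -0.36 with *CPT1A* and 0.55 with *ACAA2*, the 2 cholangiocyte markers 0.01 with *CPT1A* and -0.57 with *ACAA2*, and the 2 B and plasma cell markers 0.52 with *CPT1A* and -0.31 with *ACAA2*. For the macrophage (7 genes), stellate cell (8 genes), T and NK cell (1 gene) and erythroid (1 gene) lists r lay between -0.38 and 0.38. The T and NK cell gene was dim, at 4.44 to 5.17 in H animals and 4.42 to 5.57 in L animals. The part of these cell types in the spread of *CPT1A* and *ACAA2* was not tested.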
